A study of Mus musculus with 6 samples.

Results

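The genes described are 10 members of the stress pathway that runs through the transcription factors ATF4 and CHOP: Atf4, Ddit3 (which encodes CHOP), Atf3, Atf5, Cebpb, Nupr1, Trib3, Chac1, Ddit4 and the hormone gene Gdf15. They were chosen by symbol from the 23337 genes of the count table, and all 10 passed the filter on low counts that left 14587 genes. RNA-seq was performed on primary cardiomyocytes of wild-type mice, injected at postnatal day 1 with an adeno-associated virus (AAV). The virus carried GFP in the control group, XBP1S (the spliced, active form of XBP1) in the second group and ATF6N (the amino-terminal fragment of ATF6 that enters the nucleus) in the third. Hearts were digested by Langendorff perfusion at 4 weeks of age and the cardiomyocytes were purified by flow cytometry. Each of the 3 groups had 2 libraries, called here AAV-GFP, AAV-XBP1S and AAV-ATF6N replicates 1 and 2. All mice were thus wild type, and the controls also carried a virus. None of the sources used here gives the promoter of the vectors, the dose or the sorting gate. The labels also do not say that the libraries of a group came from separate animals, so p-values measure only the spread between these libraries, which may be technical.

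When eIF2α is phosphorylated by PERK, GCN2, PKR or HRI, general translation drops and ATF4 is translated more, because short open reading frames in its leader hold back its translation in unstressed cells. ATF4 binds DNA as a dimer with C/EBP family members and turns on genes for amino acid supply, for CHOP and ATF3, and for feedback. PERK is the sensor of endoplasmic reticulum (ER) stress that feeds this branch. XBP1 and ATF6 belong to the other arms of the unfolded protein response, and ATF6 is also known to act on the CHOP gene. Since ATF4 is controlled largely at translation, the RNA level of Atf4 does not measure ATF4 activity.

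The promoters were searched for the DNA elements of these factors, and 3 members shared an exact match to TTGCATCA, the composite element bound by ATF4 with a C/EBP partner. Windows of 250 bases upstream of the start site were taken from RefSeq on GRCm38.p6, the build that mm10 names. All 10 members had a window, 12 windows in all, and both strands were searched. The 40 bases around each match are printed along the gene's strand, 5′ to 3′, with the element in capitals.
Atf3, chr1:191183420-191183459, minus strand: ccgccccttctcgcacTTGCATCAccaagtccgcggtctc
Nupr1, chr7:126625557-126625596, minus strand: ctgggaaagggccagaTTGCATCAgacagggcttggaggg
Chac1, chr2:119351033-119351072, plus strand: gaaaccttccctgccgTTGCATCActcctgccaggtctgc
The element lay 110 to 103 bases before the start site in both Atf3 and Nupr1, and 193 to 186 bases before it in Chac1. Of all 32851 windows in the table, 0.791% held TTGCATCA. A looser form with a free base, TTNCATCA, contains every match to TTGCATCA. It was found in the same 3 member windows and in 3.45% of all windows.

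Atf3 is shown with its whole window because it was the member that passed the test, and because it alone among the members also held an ATF/CRE element, TNACGTCA, which is the site of ATF and CREB dimers. That match began 10 bases and ended 3 bases before the start site, and 2.52% of all windows held the element. Both elements are in capitals.
Atf3, chr1:191183334-191183583, minus strand: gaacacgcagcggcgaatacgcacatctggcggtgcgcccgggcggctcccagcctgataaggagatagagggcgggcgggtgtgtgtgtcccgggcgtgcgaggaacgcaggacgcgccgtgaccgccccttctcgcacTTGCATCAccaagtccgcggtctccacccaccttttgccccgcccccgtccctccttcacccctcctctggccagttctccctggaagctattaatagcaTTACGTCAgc
The ER stress element is CCAAT and CCACG at a fixed distance and is bound by ATF6 with NF-Y. It had no exact match in the 12 member windows and occurred in 0.113% of all windows. No mismatch was allowed in CCAAT or CCACG, so near matches were not counted. On the strand opposite to the gene, the Ddit3 window has CCAAT and, at that distance, GCACG in place of CCACG. The core TGACGTGG of the element bound by XBP1 and ATF6 had 0 matches in the 12 member windows and was in 0.563% of all windows. The C/EBP site TTGCNCAA likewise had 0 matches, against 2.61% of all windows. The CCAAT box alone, which is part of the ER stress element, was in 6 of the 12 member windows and in 33.8% of all windows. A match is a description of letters, and these 250 bases hold only part of each gene's control region. For Gdf15 the RefSeq windows begin at start sites upstream of the gene's end in the count table, so they need not be the promoter behind the counted exons.

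The leaders of the main GENCODE M21 transcripts were compared as well, since upstream start codons carry the translational control of this pathway. An ATG before the main start was present 3 times in Atf4, 2 times in Ddit3, 1 time in Atf3, 2 times in Atf5, 1 time in Nupr1 and 4 times in Gdf15. No upstream ATG was found in the leaders of Cebpb, Trib3, Chac1 and Ddit4. In Atf4 and in Atf5, 1 of these upstream frames ran over the main start codon in another reading frame. Among 17060 genes, 45.3% had at least 1 upstream ATG and 14.9% had such an overlapping frame. The annotation behind the counts is not given, so these transcripts, that of Gdf15 among them, need not be the ones counted.

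Across the 6 libraries total counts ran from 67702482 to 112049342. Expression below is in CPM, read counts scaled to a common library size after TMM normalization, and errors are SD over 2 libraries unless named otherwise. The AAV-GFP libraries lay farthest apart: the median gene differed by 0.58 on the log2 scale between AAV-GFP replicates, by 0.38 between AAV-XBP1S replicates and by 0.13 between AAV-ATF6N replicates, and AAV-GFP replicate 1 had 0.337% of its counts in the ribosomal gene Rn45s against 0.0319% to 0.13% in the others. In the order AAV-GFP, AAV-XBP1S, AAV-ATF6N, Xbp1 averaged 107, 163 and 148 CPM and Atf6 57.7, 94.0 and 160 CPM. In the edgeR quasi-likelihood test neither vector gene passed in its own group (adjusted p = 0.307 for Xbp1 and 0.126 for Atf6). In the authors' deposited tables Atf6 passed in AAV-ATF6 (log2 fold change 1.47, adjusted p = 0.000799). Xbp1 did not pass there in AAV-XBP1 (0.61, adjusted p = 0.829). The labels do not say whether the vector transcripts can be counted under these genes. The 12 cardiomyocyte markers summed to 112574 to 129527 CPM in AAV-GFP, 100306 to 100914 in AAV-XBP1S and 133858 to 134534 in AAV-ATF6N. Against AAV-GFP, 2 of the 12 had a log2 fold change above 0 and 10 below in AAV-XBP1S. In AAV-ATF6N 4 were above 0 and 8 below. The 10 endothelial markers summed to 1179 to 1350 CPM in AAV-GFP, 1602 to 1780 in AAV-XBP1S and 733 to 788 in AAV-ATF6N. The 10 fibroblast markers summed to 493 to 618, 844 to 986 and 813 to 851 CPM in the same order, the 12 macrophage and leukocyte markers to 42.9 to 43.0, 52.4 to 62.7 and 54.8 to 55.5, and the 8 smooth muscle and pericyte markers to 916 to 961, 1014 to 1051 and 1222 to 1253. Against AAV-GFP, all 10 fibroblast markers had a log2 fold change above 0 in AAV-XBP1S, while in AAV-ATF6N 7 were above and 3 below. Of the 12 macrophage and leukocyte markers, 7 were above 0 and 5 below with either factor. Of the 8 smooth muscle and pericyte markers, 6 had a log2 fold change above 0 in AAV-ATF6N and 2 below. The smooth muscle gene Acta2 was at 810 and 818 CPM in AAV-ATF6N against 664 and 529 in AAV-GFP. The pericyte gene Cspg4 was at 24.3 and 27.7 CPM against 16.3 and 20.5. The 2 below 0 were the pericyte genes Rgs5 and Kcnj8, at -0.59 and -1.10 (edgeR adjusted p = 0.305 and 0.136). Of 5 erythroid genes, 2 had no count in any library. The list summed to 131 to 277, 70.3 to 106 and 41.0 to 42.0 CPM. Its gene Alas2 passed as lower in AAV-ATF6N than in AAV-GFP (log2 fold change -1.75, SE 0.25, edgeR adjusted p = 0.0470). The part of these other cells in the results below was not tested. In such bulk samples, fewer cells that use a gene and less RNA per cell cannot be told apart.

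The level of the members per length spanned a wide range. As FPKM, that is CPM divided by the kilobases of exon in the count table, Cebpb led in all 3 groups, with means of 170 in AAV-GFP, 47.6 in AAV-XBP1S and 176 in AAV-ATF6N, and Atf5 came last, with 0.989, 0.856 and 0.462. The order by mean FPKM in AAV-GFP was Cebpb, Ddit3 (36.0), Atf4 (34.2), Atf3 (16.1), Ddit4 (13.8), Chac1 (10.8), Nupr1 (2.47), Trib3 (2.16), Gdf15 (1.96) and Atf5. The ranges of Ddit3 and Atf4 overlapped there, as did each pair of neighbours from Nupr1 to Atf5. In AAV-XBP1S the order by mean FPKM was Cebpb, Atf4 (29.8), Atf3 (29.0), Ddit3 (21.5), Nupr1 (9.53), Ddit4 (5.37), Chac1 (3.27), Trib3 (2.58), Gdf15 (1.60) and Atf5, and only Atf4 and Atf3 overlapped. In AAV-ATF6N it was Cebpb, Ddit3 (55.7), Atf3 (40.9), Atf4 (31.6), Nupr1 (14.9), Ddit4 (13.5), Gdf15 (7.91), Chac1 (4.76), Trib3 (3.58) and Atf5, and only Nupr1 and Ddit4 overlapped.

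**Figure D1:**
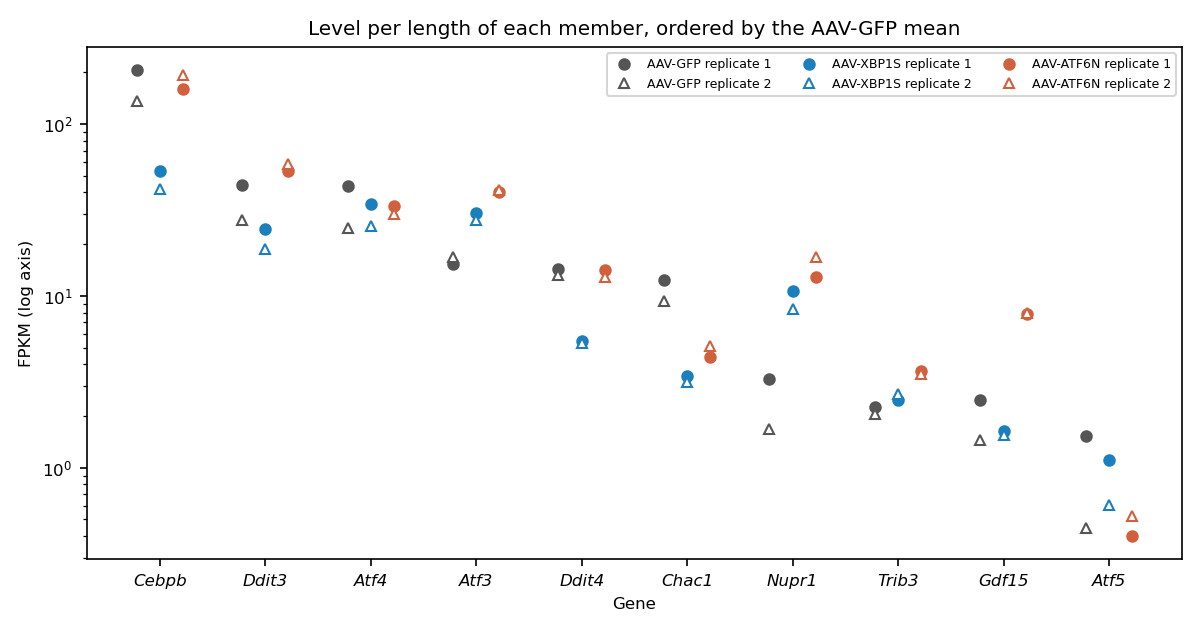
Level per length of the 10 members in each library, in FPKM on a log axis, with genes in the order of their AAV-GFP means, circles for replicate 1 and triangles for replicate 2. Cebpb is at the top in each group (means of 170, 47.6 and 176 FPKM) and Atf5 at the bottom, and Nupr1 has means of 2.47, 9.53 and 14.9 FPKM in AAV-GFP, AAV-XBP1S and AAV-ATF6N.

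With either factor some members lay above AAV-GFP and others below it. Atf3 rose 2.53-fold in AAV-ATF6N, and it was the only member to pass the edgeR test at an adjusted p under 0.05 in any of the 3 comparisons. Nupr1 and Gdf15 had larger mean differences in AAV-ATF6N, 6.02-fold and 4.03-fold above AAV-GFP. In AAV-XBP1S the mean of Nupr1 was 3.86-fold above AAV-GFP, and those of Cebpb, Chac1 and Ddit4 were 3.58-fold, 3.30-fold and 2.57-fold below it. Atf4 itself had means of 58.9 ± 23.1 CPM in AAV-GFP, 51.4 ± 10.6 with XBP1S and 54.5 ± 3.98 with ATF6N (SD, n = 2 each).

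By the edgeR test 0 of 10 members passed in AAV-XBP1S against AAV-GFP, 1 of 10 in AAV-ATF6N against AAV-GFP and 0 of 10 in AAV-ATF6N against AAV-XBP1S. Among all genes tested, 0.315%, 0.514% and 0.226% passed in these comparisons. At an unadjusted p under 0.05 the members numbered 6, 5 and 5, and the genes in all 11.6%, 13.5% and 13.2%. The median absolute log2 fold change of the members was 0.79, 0.92 and 0.77, against 0.34, 0.43 and 0.35 over all genes tested. Their signed medians were -0.26, 0.34 and 0.59, against -0.01, -0.02 and -0.01. Both comparisons with AAV-GFP share the AAV-GFP libraries, and the third shares libraries with each.

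Groups that did not overlap, with both libraries of a group above or below both of the other, were counted too. In AAV-XBP1S 3 members lay above AAV-GFP and 4 below, against 35.9% of all genes not overlapping in either direction. In AAV-ATF6N 5 lay above AAV-GFP and 1 below, against 54.5% of all genes. Between the factors 8 lay above in AAV-ATF6N and 1 below, against 56.9% of all genes.

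The number of members past the threshold depended on the model of the spread. DESeq2 with the same design called 2 members higher (Atf3 and Nupr1) and 3 lower (Cebpb, Chac1 and Ddit4) in AAV-XBP1S, where it called 3.17% of all genes with an adjusted p. In AAV-ATF6N it called 3 higher (Atf3, Nupr1 and Gdf15) and 1 lower (Chac1), against 3.76% of all genes. Between the factors it called Ddit3, Cebpb, Ddit4 and Gdf15, all 4 higher in AAV-ATF6N, against 5.39% of all genes. In the authors' deposited table for AAV-ATF6, Atf3, Nupr1 and Gdf15 were higher and Chac1 lower at an adjusted p under 0.05, where 2.71% of genes with an adjusted p passed. The authors' deposited table for AAV-XBP1 had Nupr1 higher and Cebpb, Chac1 and Ddit4 lower, where 1.31% passed.

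**Figure D2:**
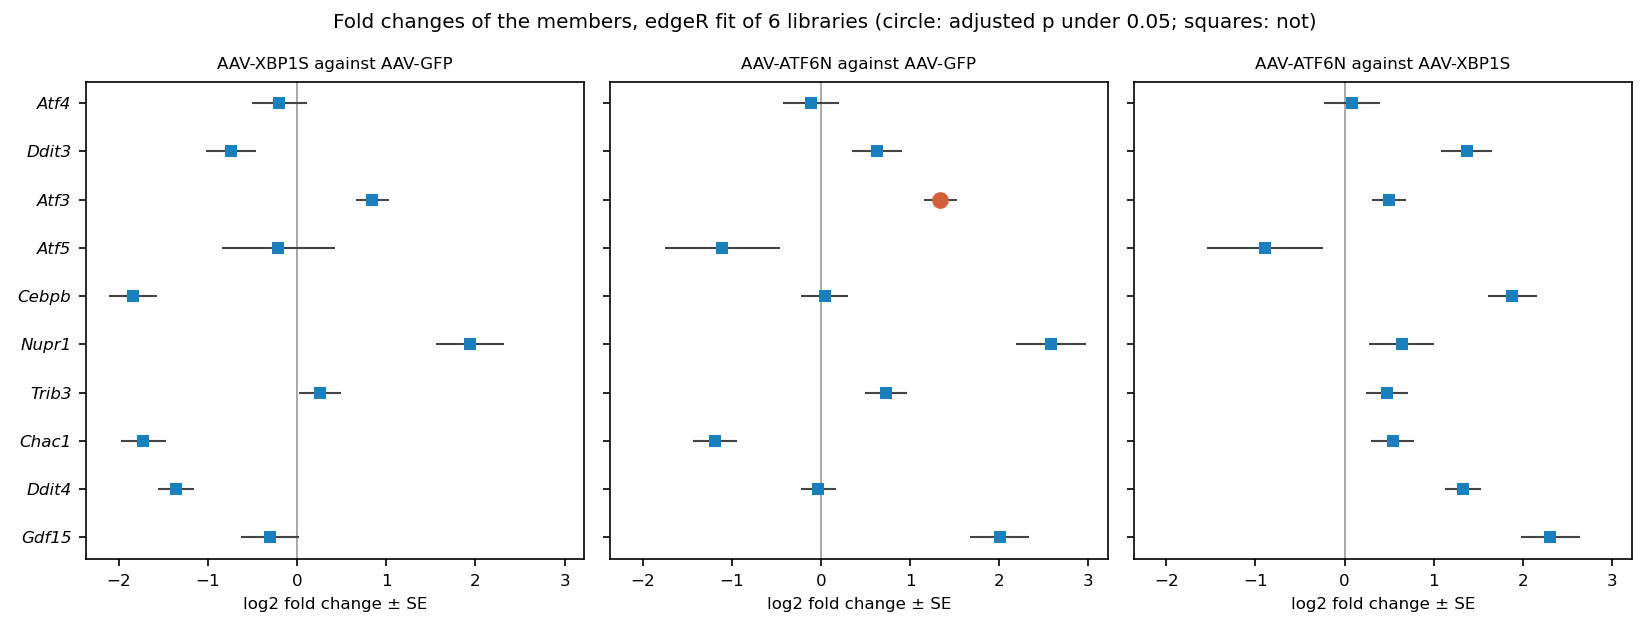
Log2 fold change of each member with its standard error (SE) from the edgeR fit of 6 libraries, in the 3 comparisons, with a circle where the adjusted p is under 0.05 and squares elsewhere. Atf3 in AAV-ATF6N against AAV-GFP is the only circle, at 1.34, while Nupr1 and Gdf15 lie farther to the right at 2.58 and 2.01 with wider errors.

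Atf4 lies at chr15:80255184-80257541 (mm10, plus strand) and encodes the transcription factor that the pathway turns on. The AAV-GFP libraries held 75.3 and 42.6 CPM, the AAV-XBP1S libraries 58.9 and 43.9, and the AAV-ATF6N libraries 57.3 and 51.7. The groups overlapped throughout, and the gap between the AAV-GFP replicates was wider than any gap between group means. Against AAV-GFP the log2 fold change was -0.20 with XBP1S, with a 95% interval from -0.94 to 0.54, and -0.11 with ATF6N, with an interval from -0.85 to 0.63. Neither passed (edgeR adjusted p = 0.823 and 0.859). These intervals also hold differences of moderate size in either direction, so they do not show that the level stayed the same.

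Ddit3 (chr10:127290793-127296288, plus strand) encodes CHOP, a C/EBP family member that promotes cell death under lasting ER stress. AAV-GFP libraries gave 38.6 and 24.1 CPM, AAV-XBP1S libraries 21.3 and 16.2, and AAV-ATF6N libraries 46.1 and 50.8. Both AAV-XBP1S libraries were thus below, and both AAV-ATF6N libraries above, the 2 AAV-GFP libraries. Relative to AAV-GFP, AAV-XBP1S had a log2 fold change of -0.74 (SE 0.28, edgeR adjusted p = 0.399) and AAV-ATF6N of 0.63 (SE 0.28, adjusted p = 0.382). The direct comparison gave a mean 2.58-fold higher in AAV-ATF6N than in AAV-XBP1S (log2 fold change 1.37, SE 0.29, edgeR adjusted p = 0.107), which DESeq2 called (adjusted p = 0.00163). By whole gene spans, introns included, Ddit3 overlaps Mars by 68 bases and Gm4189 by 15 on the opposite strand. Overlap of exons alone was not measured. In libraries that do not keep strand, reads from exons that overlap cannot be told apart. Mars ran from 62.5 to 96.5 CPM, with its lowest and highest libraries both in AAV-GFP.

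Atf3 (chr1:191170297-191183333, minus strand) encodes a bZIP factor that is induced by ATF4 and also belongs to the immediate early genes, which respond to many stimuli within minutes. Control libraries gave 30.5 and 33.3 CPM, those with XBP1S 59.7 and 54.9, and those with ATF6N 79.8 and 81.8. The 3 groups were fully separate, and the replicates of each lay close together. In AAV-ATF6N Atf3 rose by a log2 fold change of 1.34 (SE 0.19, edgeR adjusted p = 0.0480). The mean in AAV-XBP1S was 1.80-fold that of AAV-GFP (log2 fold change 0.84, SE 0.19, edgeR adjusted p = 0.185), and AAV-ATF6N was 1.41-fold above AAV-XBP1S (adjusted p = 0.324). The call in AAV-ATF6N was close to the threshold. In edgeR it held with RLE normalization (adjusted p = 0.0464), with no filter on low counts (0.00673) and with the replicate number as a further term (0.0211). It was lost under robust estimation (edgeR adjusted p = 0.0547) and with only AAV-ATF6N and AAV-GFP fitted (0.158). DESeq2 called Atf3 there (adjusted p = 1.22e-06). The log2 fold change lay between 1.28 and 1.42 in all 6 fits that left out 1 library.

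Atf3 was set beside the other immediate early genes, because cell isolation is known to induce that class. The 20 immediate early and dissociation genes of that list, which does not hold Atf3, summed to 2191 to 2467 CPM in AAV-GFP, 2242 to 2395 in AAV-XBP1S and 3258 to 3303 in AAV-ATF6N. Fos, a partner of JUN in the AP-1 factor, was at 114 and 99.2 CPM in the controls, 187 and 166 with XBP1S and 348 and 347 with ATF6N, and it rose in AAV-ATF6N (log2 fold change 1.70, SE 0.19, edgeR adjusted p = 0.0277). Egr1, a zinc finger factor of the same class, was at 61.4 and 89.9, 105 and 130, and 289 and 283 CPM, and rose in AAV-ATF6N (1.92, SE 0.25, adjusted p = 0.0401). In AAV-ATF6N 2 of the 20 genes passed the edgeR test as higher and none as lower, where 0.514% of all genes tested passed. Both AAV-ATF6N libraries were above both AAV-GFP libraries for 14 of the 20 and below them for 4. Among all genes, 54.5% did not overlap in either direction. The median log2 fold change of the list was 0.51. The part of these 20 genes in the Atf3 result was not tested. Over the 6 libraries, the genes whose log2 CPM was most like Atf3 among 9540 genes of at least 5 CPM were Derl3 (Pearson r 0.999), Pdia2 (0.994) and Slc38a1 (0.984), with 44 genes over 0.95. These 6 points fall into the 3 groups, so the likeness is a description of group levels. Derl3, which takes part in the removal of misfolded ER proteins, averaged 0.346, 12.5 and 139 CPM in AAV-GFP, AAV-XBP1S and AAV-ATF6N, Pdia2 0, 3.08 and 33.6, and the amino acid transporter gene Slc38a1 27.5, 35.2 and 44.1.

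Atf5 (chr7:44812256-44816658, minus strand) encodes a close relative of ATF4 that acts in the mitochondrial stress response. It was the member of lowest level, at 3.06 and 0.884 CPM in AAV-GFP, 2.20 and 1.21 with XBP1S, and 0.801 and 1.04 with ATF6N. AAV-GFP replicate 1 was the highest library and AAV-GFP replicate 2 among the lowest, so that no comparison with AAV-GFP separated the groups. Its log2 fold changes were -0.21 (SE 0.63) for XBP1S and -1.10 (SE 0.65) for ATF6N, neither past the threshold (edgeR adjusted p = 0.908 and 0.429). In AAV-ATF6N the log2 fold change was -1.72 without AAV-GFP replicate 2 and 0.056 without AAV-GFP replicate 1. The gene span of Atf5 also overlaps that of Nup62 by 571 bases and that of Il4i1 by 272 on the opposite strand. Nup62, at 27.6 to 35.2 CPM, was far more abundant than Atf5.

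Cebpb (chr2:167688915-167690418, plus strand), a gene of 1 exon, encodes C/EBPβ, a dimer partner of both ATF4 and CHOP. AAV-GFP libraries held 309 and 204 CPM, AAV-XBP1S libraries 79.9 and 63.3, and AAV-ATF6N libraries 241 and 288. Both AAV-XBP1S libraries were far below the other 4, and AAV-GFP and AAV-ATF6N overlapped. The log2 fold change in AAV-XBP1S was -1.84 (SE 0.27, edgeR adjusted p = 0.0629), which did not pass in edgeR and did in DESeq2 (adjusted p = 5.76e-07). In the authors' deposited table it was -1.85 with an adjusted p of 0.000219. In AAV-ATF6N it was 0.04 (SE 0.27, adjusted p = 0.939). AAV-ATF6N was 3.69-fold above AAV-XBP1S (log2 fold change 1.88, SE 0.27, edgeR adjusted p = 0.0579; DESeq2 adjusted p = 3.27e-07). The gene span of Cebpb overlaps that of Tmem189 by 908 bases on the opposite strand. Tmem189 was at 49.2 and 52.7 CPM in the controls, 42.3 and 41.1 with XBP1S, and 56.0 and 58.0 with ATF6N.

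**Figure D3:**
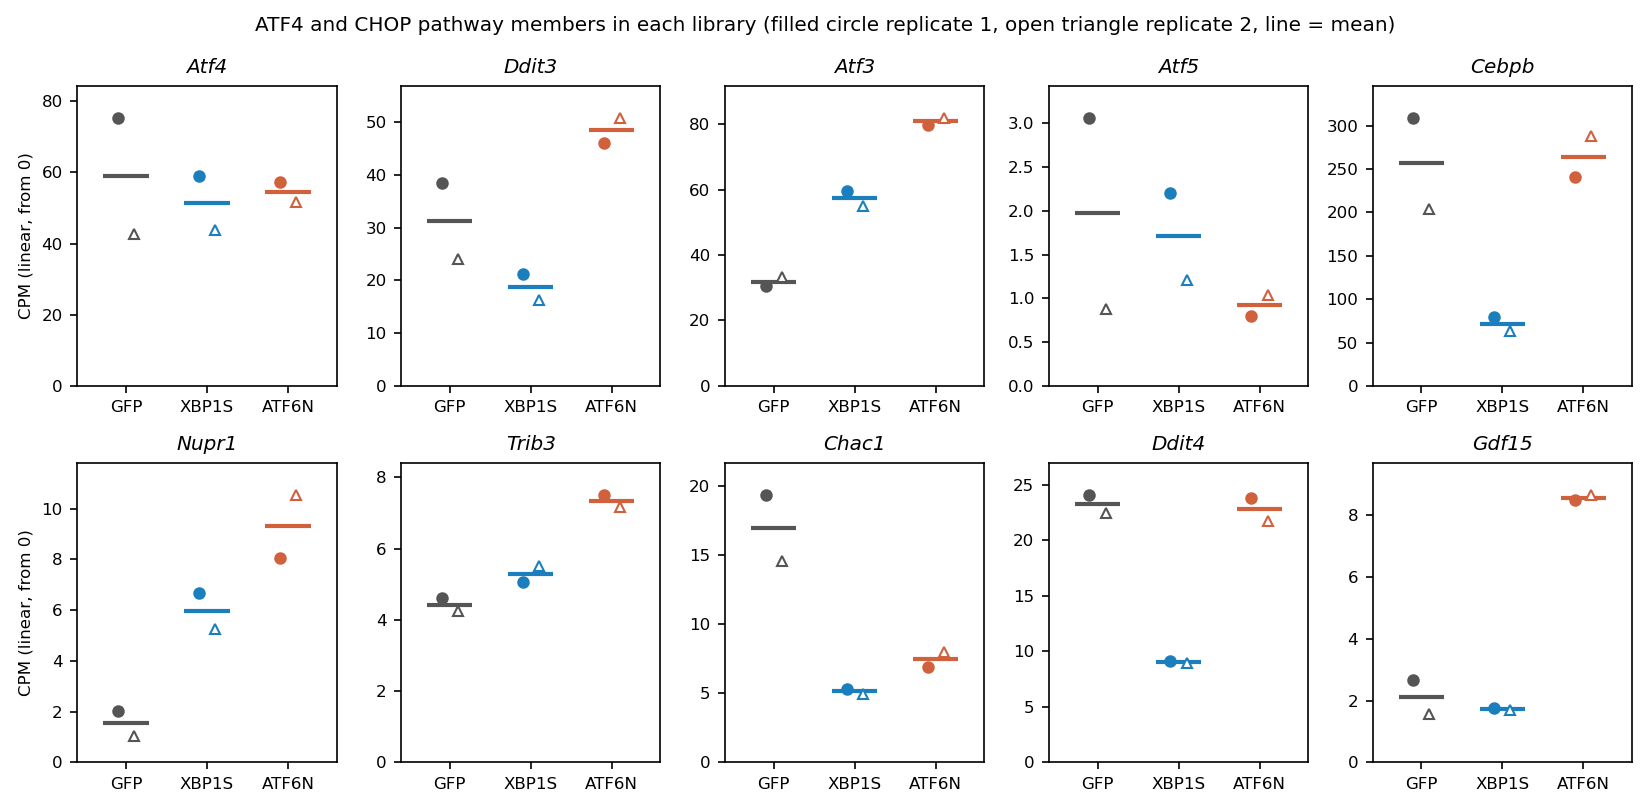
Level of each member in every library, in CPM on linear axes that start at 0 and differ between panels, with a filled circle for replicate 1, an open triangle for replicate 2 and a line at the mean of the group. Atf3 and Nupr1 show 3 separate groups in the order AAV-GFP, AAV-XBP1S, AAV-ATF6N, Cebpb and Ddit4 are lowest in AAV-XBP1S, and Gdf15 is highest in AAV-ATF6N.

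Nupr1 (chr7:126623246-126625470, minus strand) encodes a small nuclear protein, induced by ATF4, that helps cells survive stress. It was low in AAV-GFP, at 2.04 and 1.05 CPM, and stood at 6.66 and 5.27 with XBP1S and at 8.07 and 10.5 with ATF6N. All 4 libraries with a factor were above both control libraries. Counts were modest, 201 and 75 reads in the controls against 620 and 431 with XBP1S and 655 and 689 with ATF6N. Nupr1 had a log2 fold change of 1.94 (SE 0.38, edgeR adjusted p = 0.135) for XBP1S and of 2.58 (SE 0.39, adjusted p = 0.0539) for ATF6N. DESeq2 called both (adjusted p = 0.000362 and 1.49e-07). The authors' deposited tables also have both past the threshold, with log2 fold changes of 1.94 and 2.59 and adjusted p of 0.0162 and 1.40e-06. In edgeR fits that left out 1 library, the log2 fold change ran from 1.58 to 2.50 for XBP1S and from 2.20 to 3.14 for ATF6N. The lower ends came without AAV-GFP replicate 2 and the upper ends without AAV-GFP replicate 1. The 2 factors differed by a log2 fold change of 0.64 (SE 0.36, adjusted p = 0.506).

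Trib3 (chr2:152337425-152344060, minus strand) encodes a pseudokinase that binds ATF4, CHOP and AKT and serves as a feedback brake. It was at 4.61 and 4.24 CPM in AAV-GFP, 5.05 and 5.52 with XBP1S, and 7.52 and 7.18 with ATF6N. The groups did not overlap, with narrow steps between them. For XBP1S the log2 fold change was 0.26 (SE 0.23, edgeR adjusted p = 0.692) and for ATF6N 0.73 (SE 0.23, adjusted p = 0.301), and neither passed in DESeq2 either (adjusted p = 0.792 and 0.168).

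Chac1 (chr2:119351242-119354327, plus strand) encodes an enzyme that breaks down glutathione and is a well known target of ATF4, ATF3 and CHOP. Levels were 19.4 and 14.6 CPM in the controls, 5.34 and 4.94 with XBP1S, and 6.94 and 8.01 with ATF6N. Both control libraries were above all 4 libraries with a factor. In Nupr1 and Atf3, whose windows hold the same composite element, both control libraries were instead below all 4 libraries with a factor. In AAV-XBP1S the log2 fold change was -1.72 (SE 0.25, edgeR adjusted p = 0.0597; DESeq2 adjusted p = 2.15e-06). In AAV-ATF6N it was -1.18 (SE 0.25, edgeR adjusted p = 0.139; DESeq2 adjusted p = 0.00433). The authors' deposited tables give -1.73 with an adjusted p of 0.00205 and -1.18 with 0.0336. Without AAV-GFP replicate 2 the edgeR log2 fold changes were -1.88 in AAV-XBP1S and -1.36 in AAV-ATF6N. Without AAV-GFP replicate 1 they were -1.51 and -0.97.

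Ddit4 (chr10:59949675-59951770, minus strand) encodes REDD1, which holds back the growth kinase complex mTORC1 and is induced by ATF4, low oxygen and glucocorticoids. AAV-GFP libraries were at 24.1 and 22.4 CPM, AAV-XBP1S libraries at 9.16 and 8.95, and AAV-ATF6N libraries at 23.8 and 21.8. The replicates lay close together, only AAV-XBP1S was low, and AAV-GFP and AAV-ATF6N overlapped. In AAV-XBP1S the log2 fold change was -1.36 (SE 0.20, edgeR adjusted p = 0.0628; DESeq2 adjusted p = 7.51e-06; -1.37 with an adjusted p of 0.0202 in the authors' deposited table). In AAV-ATF6N it was -0.03 (SE 0.20, adjusted p = 0.943). AAV-ATF6N was 2.52-fold above AAV-XBP1S (log2 fold change 1.33, SE 0.20, edgeR adjusted p = 0.0590; DESeq2 adjusted p = 1.29e-05).

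Glucocorticoid-responsive genes were set beside Ddit4 and Cebpb, which glucocorticoids are known to induce. The 10 genes of that list summed to 1093 to 1262 CPM in AAV-GFP, 659 to 666 in AAV-XBP1S and 1134 to 1144 in AAV-ATF6N. In AAV-XBP1S 9 of the 10 lay below AAV-GFP in both libraries, against 35.9% of all genes not overlapping in either direction, and the median log2 fold change was -0.99, against -0.01 over all genes. Zbtb16, a transcription factor strongly induced by glucocorticoids, was at 61.3 and 51.0 CPM in the controls, 13.0 and 13.9 with XBP1S, and 73.0 and 58.8 with ATF6N. It was the gene of the list that passed: it fell by 2.06 on the log2 scale in AAV-XBP1S (SE 0.22, edgeR adjusted p = 0.0235) and was higher in AAV-ATF6N than in AAV-XBP1S (2.30, SE 0.22, adjusted p = 0.0271). The part of this response in the Ddit4 and Cebpb values was not tested. Among the 11 genes listed around REDD1, which include parts of mTORC1 as well as its regulators, none passed in the 3 comparisons. Txnip, an inhibitor of glucose uptake that responds to the energy state, had a log2 fold change of -0.87 (SE 0.21, edgeR adjusted p = 0.207) in AAV-XBP1S and -0.37 in AAV-ATF6N. Akt1s1, an inhibitory subunit of mTORC1, had -0.65 and -0.49, and Mtor, its kinase, 0.06 and 0.80.

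Gdf15 (chr8:70629394-70631635, minus strand) encodes a secreted hormone of the TGF-β superfamily that acts on the receptor GFRAL in the hindbrain and lowers food intake. Control libraries held 2.68 and 1.57 CPM, those with XBP1S 1.77 and 1.69, and those with ATF6N 8.48 and 8.67. Both AAV-ATF6N libraries were above the other 4, and AAV-XBP1S lay within the range of AAV-GFP. Read counts were 264 and 112, 165 and 138, and 688 and 566 in the same order. In AAV-ATF6N its log2 fold change was 2.01 (SE 0.33, edgeR adjusted p = 0.0758; DESeq2 adjusted p = 2.42e-05; 2.01 with an adjusted p of 0.000252 in the authors' deposited table). In edgeR fits that left out 1 library, this log2 fold change ran from 1.69 (without AAV-GFP replicate 2) to 2.45 (without AAV-GFP replicate 1). Each such fit leaves 1 library in a group, so only the log2 fold change of a member is given. In AAV-XBP1S it was -0.30 (SE 0.32, adjusted p = 0.737). AAV-ATF6N was 4.95-fold above AAV-XBP1S (log2 fold change 2.31, SE 0.33, edgeR adjusted p = 0.0579; DESeq2 adjusted p = 6.21e-07).

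The receptor gene Gfral did not pass the filter on low counts. Of the 14 genes listed for the GDF15 system and related stress hormones, 10 were tested, and Nppa was the gene that passed. Nppa, which encodes atrial natriuretic peptide, was at 229 and 101 CPM in the controls, 465 and 301 with XBP1S, and 2184 and 2340 with ATF6N, and it rose in AAV-ATF6N (log2 fold change 3.78, SE 0.45, edgeR adjusted p = 0.0298). Fgf21, the other hormone of the integrated stress response, is named here after its values were seen. It had 0 reads in the 4 libraries of AAV-GFP and AAV-XBP1S and 24 and 10 reads in AAV-ATF6N, where its CPM was at least 12.7-fold that of AAV-GFP when 3 counts over the control group are taken as the floor. Fgf21 passed the filter on low counts only through AAV-ATF6N, the group where it had reads. Its test did not pass (edgeR adjusted p = 0.309).

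The rest of the pathway was read from lists of genes that are not members. None of the 16 genes for the eIF2α kinases, the phosphatase subunits and eIF2B passed in any comparison, with median log2 fold changes of -0.04 in AAV-XBP1S and 0.02 in AAV-ATF6N. The gene nearest the threshold was Dnajc3, which encodes the ER protein p58IPK. It had means of 69.0 ± 1.52 CPM in AAV-GFP, 91.1 ± 18.9 in AAV-XBP1S and 179 ± 0.377 in AAV-ATF6N (n = 2 each; log2 fold change 1.38 in AAV-ATF6N, SE 0.22, edgeR adjusted p = 0.0616). Eif2b4, a subunit of the exchange factor eIF2B, had log2 fold changes of -0.55 in AAV-XBP1S and -0.47 in AAV-ATF6N, and Impact, an inhibitor of GCN2 activation, -0.46 and 0.70.

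Among the ATF4 targets for amino acid uptake and synthesis, 18 of 20 could be tested and none passed. Their median log2 fold change was 0.25 in AAV-XBP1S and 0.53 in AAV-ATF6N, with 6 and 11 of the 18 above AAV-GFP in both libraries and 4 and 2 below, where 35.9% and 54.5% of all genes did not overlap in either direction. Phgdh, the entry enzyme of serine synthesis, was at 0.427 and 0.253 CPM in the controls, 0.967 and 0.758 with XBP1S, and 2.64 and 3.71 with ATF6N (log2 fold change 3.21 in AAV-ATF6N, SE 0.47, edgeR adjusted p = 0.0529). Psat1, the next enzyme of that path, had log2 fold changes of 1.64 in AAV-XBP1S (SE 0.30, adjusted p = 0.111) and 1.23 in AAV-ATF6N (SE 0.30, adjusted p = 0.194). Aldh18a1, an enzyme of proline synthesis, had 1.66 and 1.24, with 12.1 ± 6.53 CPM in AAV-GFP (SD, n = 2).

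The 13 genes of charging and export of transfer RNA that ATF4 is known to induce held none that passed. Their median log2 fold change was 0.11 in AAV-XBP1S and 0.21 in AAV-ATF6N, where 9 of 13 lay above AAV-GFP in both libraries and 0 below, against 54.5% of all genes not overlapping in either direction. The tRNA synthetase genes with the smallest p were Eprs, Iars and Tars, at log2 fold changes of 0.52, 0.91 and 0.38 in AAV-ATF6N and 0.23, 0.24 and 0.22 in AAV-XBP1S.

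Of 24 other targets of ATF4 and CHOP, 23 were tested and none passed. The median log2 fold change was -0.04 in AAV-XBP1S and -0.15 in AAV-ATF6N, and the latter did not move when Fgf21 was set at the bound given above. Herpud1, which encodes an ER membrane protein of misfolded protein removal, averaged 295 ± 2.96 CPM in AAV-GFP, 227 ± 9.07 in AAV-XBP1S and 487 ± 4.18 in AAV-ATF6N (n = 2 each). Its log2 fold change was 0.72 in AAV-ATF6N against AAV-GFP (SE 0.18, edgeR adjusted p = 0.195) and 1.10 against AAV-XBP1S (SE 0.18, adjusted p = 0.0655). Bcl2l11, which encodes the death protein BIM, a CHOP target, had a log2 fold change of -1.09 in AAV-ATF6N (SE 0.27, adjusted p = 0.195), opposite in sign to the Ddit3 value, and Hmox1, for heme oxygenase, had 1.10 (SE 0.23, adjusted p = 0.139).

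Among bZIP factors that can pair with ATF4, CHOP or ATF3, 29 of 31 were tested. Fos rose in AAV-ATF6N, as described above, and no other passed. The list's median log2 fold change was -0.15 in AAV-XBP1S and -0.06 in AAV-ATF6N. In the immediate early list, Gadd45b, a stress sensor gene, was at 30.3 and 19.5 CPM in the controls, 3.67 and 3.45 with XBP1S, and 13.4 and 12.9 with ATF6N, and it fell by 2.81 on the log2 scale in AAV-XBP1S (SE 0.28, edgeR adjusted p = 0.0189). Myc was higher in AAV-ATF6N than in AAV-XBP1S (log2 fold change 2.28, SE 0.28, adjusted p = 0.0479).

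**Figure D4:**
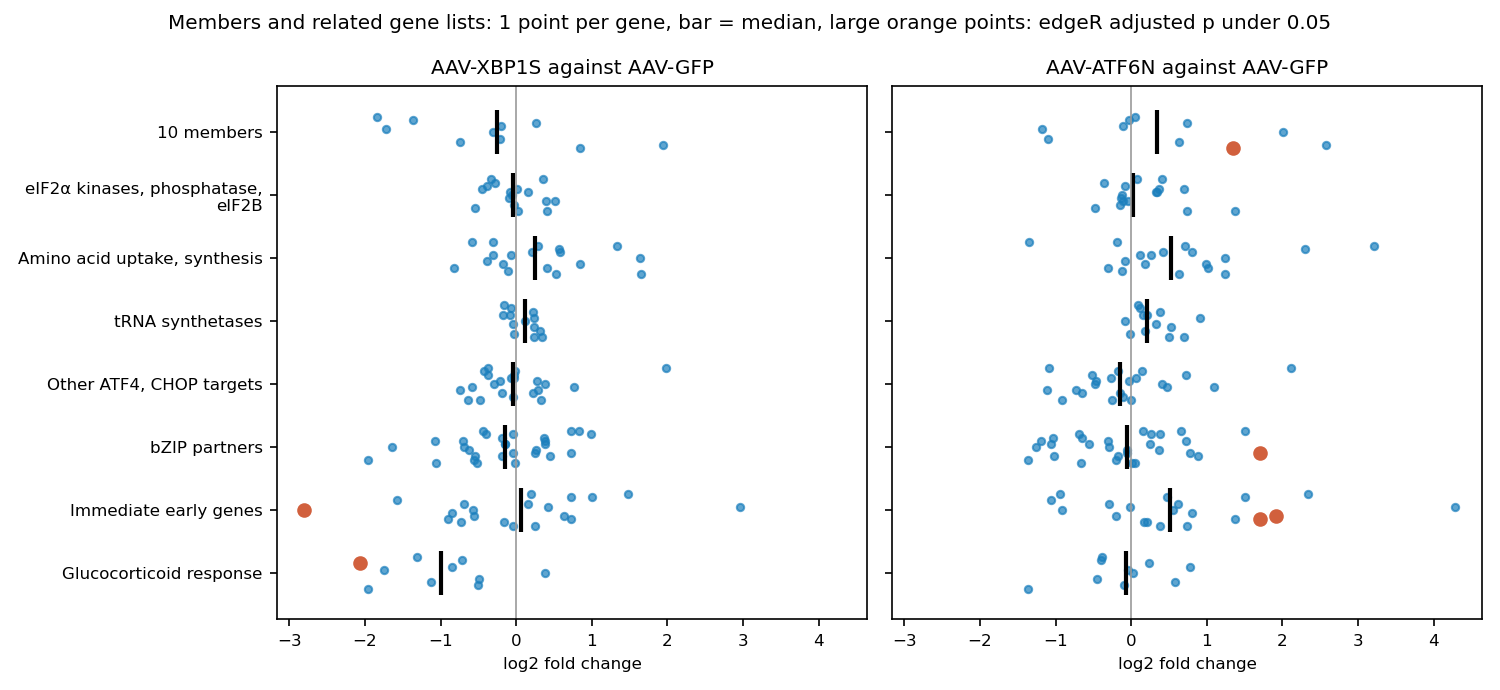
Log2 fold changes of the members and of 7 related lists in both comparisons with AAV-GFP, with 1 point per gene, a bar at the list's median and large orange points where the edgeR adjusted p is under 0.05. Fgf21, with 0 reads in AAV-GFP, is not drawn; the glucocorticoid list has its median at -0.99 in AAV-XBP1S, the immediate early list at 0.51 and the amino acid list at 0.53 in AAV-ATF6N.

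The remaining lists bear on the functions of single members. None of the 10 tested genes of the glutathione cycle around CHAC1 passed. Gclm, the modifier subunit of the rate-limiting enzyme of glutathione synthesis, had log2 fold changes of 0.20 in AAV-XBP1S and 0.61 in AAV-ATF6N (SE 0.20, edgeR adjusted p = 0.313). Ggct and Ggt5, enzymes of glutathione breakdown, had -0.32 and 0.40 with XBP1S and -0.80 and -0.84 with ATF6N (adjusted p = 0.349 and 0.389 for ATF6N). None of 10 p53 targets passed, a list read because p53 also induces Atf3 and Gdf15. Cdkn1a, the cell cycle inhibitor p21, had log2 fold changes of -0.67 in AAV-XBP1S and -0.31 in AAV-ATF6N, the death gene Bax -0.36 and -0.87, and the receptor gene Eda2r 0.12 and 0.90. The median log2 fold change of the p53 list was -0.17 and 0.25.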

How the data were processed

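The authors' deposited table gives raw read counts per gene, aligned to mm10 by STAR and counted by featureCounts, per the file headers and the submitters' processing notes. No tool version, annotation release or strand setting is given in the sources used here. The RNA kits named in the labels (SMART-Seq v4, Nextera XT) do not mark strand. The authors also deposited tables per comparison with, per the file headers, a mean normalized signal, log2 fold changes, a Wald score and p-values; the processing notes name DESeq2. All 6 count columns were used.

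Genes were kept by filterByExpr (count minimum 10) and tested with edgeR 4.0.16 (R 4.3.3): TMM, quasi-likelihood without robust estimation, the group as only term, 6 libraries, 3 residual degrees of freedom, prior degrees of freedom 3.73, Benjamini-Hochberg adjustment over 14587 genes, threshold 0.05. The SE is the log2 fold change divided by the square root of F. DESeq2 1.42.0 was an alternative, with tests of other normalization, filter, libraries and block. With 2 libraries against 2, the smallest two-sided exact permutation p is 33.3%, and no such test was run. Likeness used log2 CPM with a prior count of 2. Replicate numbers were not treated as pairs in the main fit.

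Members and lists were chosen with earlier results of these data known. Named genes of a list are those past the threshold in any comparison, otherwise up to 3 of smallest p against AAV-GFP with a mean of at least 1 CPM. Acta2, Cspg4 and Fgf21 are named outside this rule. Promoters and names are from RefSeq, leaders and overlaps (of whole gene spans) from GENCODE M21.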

Additional observations from a re-analysis of the deposited data

How the results depend on the processing

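The count of genes past the threshold moved widely with the model. In AAV-XBP1S against AAV-GFP edgeR called 46 genes, against 484 with DESeq2, 233 with no filter on low counts, 13 with only these groups fitted, and 2 to 322 when 1 library was left out. The members called were 0, against 5, 4, 0 and 0 to 3. In AAV-ATF6N against AAV-GFP 75 genes became 573, 348, 8 and 6 to 3055, and 1 member became 4, 4, 0 and 0 to 5, with 0 under robust estimation. In the direct comparison 33 genes became 803, 458, 663 and 1 to 717, and 0 members became 4, 4, 4 and 0 to 4. Among the fits that left out 1 library, the highest counts of genes came without AAV-GFP replicate 2 in both comparisons with AAV-GFP, and without AAV-GFP replicate 1 in the direct one. The cause was not tested. Differences between replicates 1 and 2, over all genes tested, correlated at 0.379 between AAV-GFP and AAV-XBP1S. The values were -0.0402 between AAV-GFP and AAV-ATF6N and -0.048 between AAV-XBP1S and AAV-ATF6N. Replicates 1 and 2 thus differed in part alike in AAV-GFP and AAV-XBP1S, and whether the numbers pair the samples is not settled. With the replicate block 165, 237 and 356 genes and 4, 3 and 4 members were called.

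Over 360 member values under the alternatives, 286 kept sign and call, 55 passed newly, 7 lost the call (all Atf3 in AAV-ATF6N) and 12 changed sign, all when 1 library was left out. Those ran from -0.52 to 0.27 for Atf4, -0.81 to 0.95 for Atf5 and -0.60 to 0.14 for Gdf15 in AAV-XBP1S. In AAV-ATF6N they ran from -0.45 to 0.36 for Atf4, -1.72 to 0.056 for Atf5, -0.095 to 0.033 for Ddit4 and -0.21 to 0.37 for Cebpb, and in the direct comparison from -0.11 to 0.27 for Atf4. None of the members whose sign changed in a comparison was called there by DESeq2. Depth did not leave any member near 3 counts: the lowest count of a member was 63, for Atf5.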
